A study of Rattus norvegicus with 9 samples.

Results

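Axon guidance ligands and receptors were followed in rat spinal cord on day 3 after contusion at thoracic level T9. The set was chosen by gene name and holds 74 of the 36051 genes in the table, among 22250 protein-coding ones: the class 3 to 7 semaphorins (20 genes), the plexins with the neuropilins (11), the ephrins (8), the Eph receptors (13), the Slits with the Robos (7), the netrins with their receptors (10), and the myelin inhibitors with their receptors and Rgma (5). Of the 74, 38 encode ligands and 36 receptors, and 70 had enough counts to be tested. The other 4 were Efna5 with 69 counts over all 9 libraries, Ntn5 with 39, Robo3 with 19 and Robo4, which was listed at 0.

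Axons and glia read guidance cues through paired families of ligands and receptors. Semaphorins act through plexins, with neuropilins as co-receptors of the secreted class 3 members, and mostly repel growth cones. Ephrins and Eph receptors signal between touching cells in both directions. Slits repel axons through Robos, and netrins attract through Dcc and repel through Unc5 receptors. In the adult cord, Nogo (Rtn4) and oligodendrocyte myelin glycoprotein (Omg) sit in myelin and restrain regrowth through the Nogo receptor (Rtn4r) and its partner Lingo1. Several of these genes also work outside neurons, in immune cells, vessels and glia.

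Libraries were made from spinal cord of wild-type rats in 3 groups of 3. Sham animals had a sham operation, SCI_Veh animals were injured and given normal saline, and SCI_ALA animals were injured and given alpha-lipoic acid, a thiol cofactor used as an antioxidant. Strain, sex, age, dose and dosing schedule are not given in the sources used here. The labels do not say that the 3 libraries of a group came from separate animals, so the p-values speak only of the spread among these libraries, which could be technical.

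Totals ran from 13857771 to 15736132 counts per library. Guidance genes took 0.384%, 0.250% and 0.319% of the counts in sham 1, 2 and 3, between 0.223% and 0.251% in SCI_Veh, and 0.206%, 0.177% and 0.142% in SCI_ALA 1, 2 and 3. Libraries differed in how their levels related to gene length. Taking each gene's log2 CPM in a library minus its mean over the 9 libraries (mean log2 CPM above 3), the Spearman correlation with length was -0.188 in sham 2, where the other sham libraries were at 0.238 and 0.342, and -0.460 in SCI_ALA 3, the lowest of all. It was -0.285 in SCI_ALA 2, 0.033 in SCI_ALA 1 and 0.052 to 0.118 in SCI_Veh. The tested guidance genes had a median length of 4259.5 bases, against 2240 bases for all genes tested. Counts of calls against sham are therefore also given without sham 2, and those of SCI_ALA also without SCI_ALA 3. Leaving out SCI_ALA 3 keeps SCI_ALA 2 and its length trend in the comparison. The main values of SCI_ALA against SCI_Veh are instead given with and without each library's length trend. The cord's defining markers were detected: all 10 neuron markers and all 10 myelin markers had counts in each group.

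On a length-corrected scale, 3 genes that oligodendrocytes are known to express led the sham cord. Mean levels there were 201 ± 11.9 FPKM (fragments scaled by gene length and depth, SD, n = 3) for Rtn4, 161 ± 84.5 for Sema4d and 121 ± 17.1 for Omg. Sema7a, a membrane-anchored semaphorin, followed at 27.4 ± 7.05 FPKM, then Sema6d at 16.3 ± 4.97 and Sema3c at 15.9 ± 9.70. The SDs of Rtn4 and Sema4d overlap, as do those of Sema4d and Omg. Those of Sema7a, Sema6d and Sema3c overlap as well. The genes are read in the same libraries, however, and Sema7a stood above Sema6d in each sham library. Sema7a was at 34.9, 21.0 and 26.2 FPKM there, and Sema6d at 21.5, 11.6 and 15.7. The order of the other overlapping pairs changed between sham libraries. Differences between genes were not tested. After injury the order changed: Plxnb2, eleventh in sham at 11.7 ± 1.53 FPKM, stood at 34.2 ± 5.03 in SCI_Veh, close to Sema4d at 34.6 ± 10.4. The lengths are the annotated ones, and a gene annotated without its untranslated ends gets a higher FPKM.

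**Figure D1:**
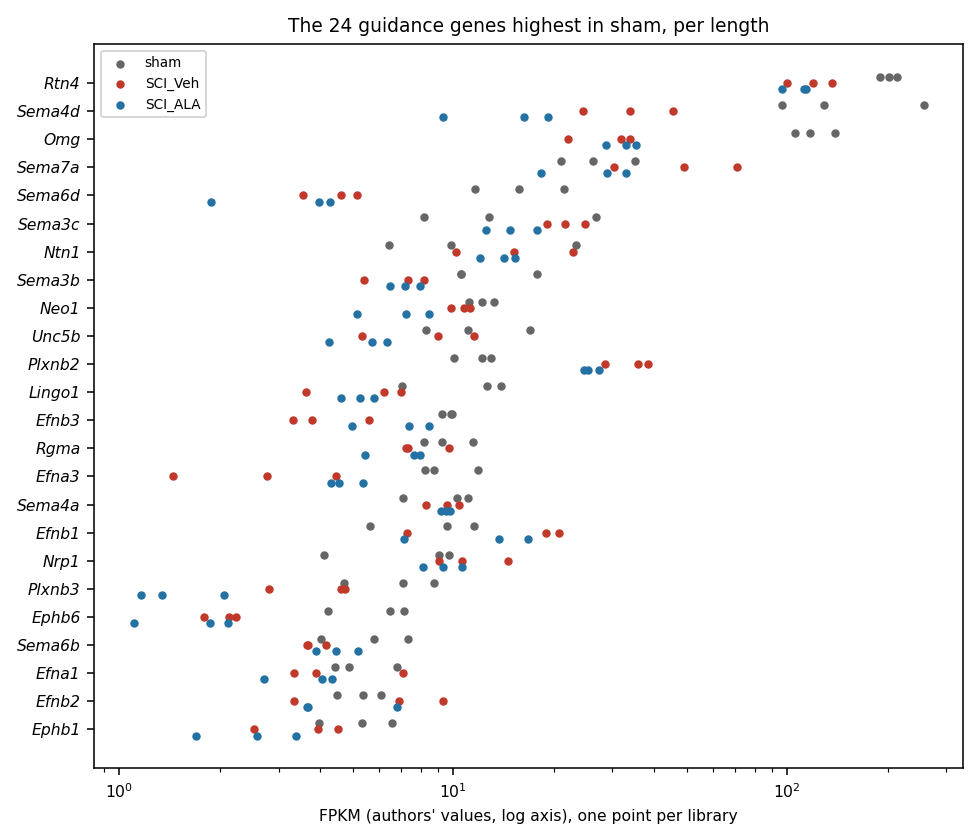
Level of the 24 guidance genes highest in sham, in FPKM (log axis), with 1 point per library coloured by group. Rtn4, Sema4d and Omg lead in sham at 201, 161 and 121 FPKM, and Plxnb2 stands higher in both injured groups than in sham.

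Injury with saline raised 8 of the 70 tested guidance genes and lowered 19. Those that rose were 5 receptors of semaphorins (Plxnb2, Plxnc1, Plxnd1, Plxna1 and Nrp2) and 3 semaphorins (Sema5b, Sema7a and Sema4b). Those that fell were spread over the semaphorins (Sema4d, Sema6d, Sema5a, Sema4g, Sema3b), Plxnb1, the ephrins Efna3 and Efnb3, the receptors Epha4, Epha5, Epha10 and Ephb6, Slit1, Slit2, Robo2, and the myelin inhibitor group (Omg, Rtn4, Rtn4r, Lingo1). Calls were made with edgeR's quasi-likelihood test at an adjusted p below 0.05 over all 16678 genes tested. Together they were 27 genes, 38.6% of the tested members against 38% of all genes. The risers were 11.4% of the tested members against 19.5% of all genes called higher, and the fallers 27.1% against 18.5% of all genes called lower. The median log2 change was -0.32 over the members and 0.00 over all genes. By libraries alone, 10 members had SCI_Veh values wholly above sham, 14.3% against 25.8% of all genes, and 18 wholly below, 25.7% against 23.9%. Without sham 2 the test called 6 higher and 22 lower, and without sham 1 it called 8 and 14.

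**Figure D2:**
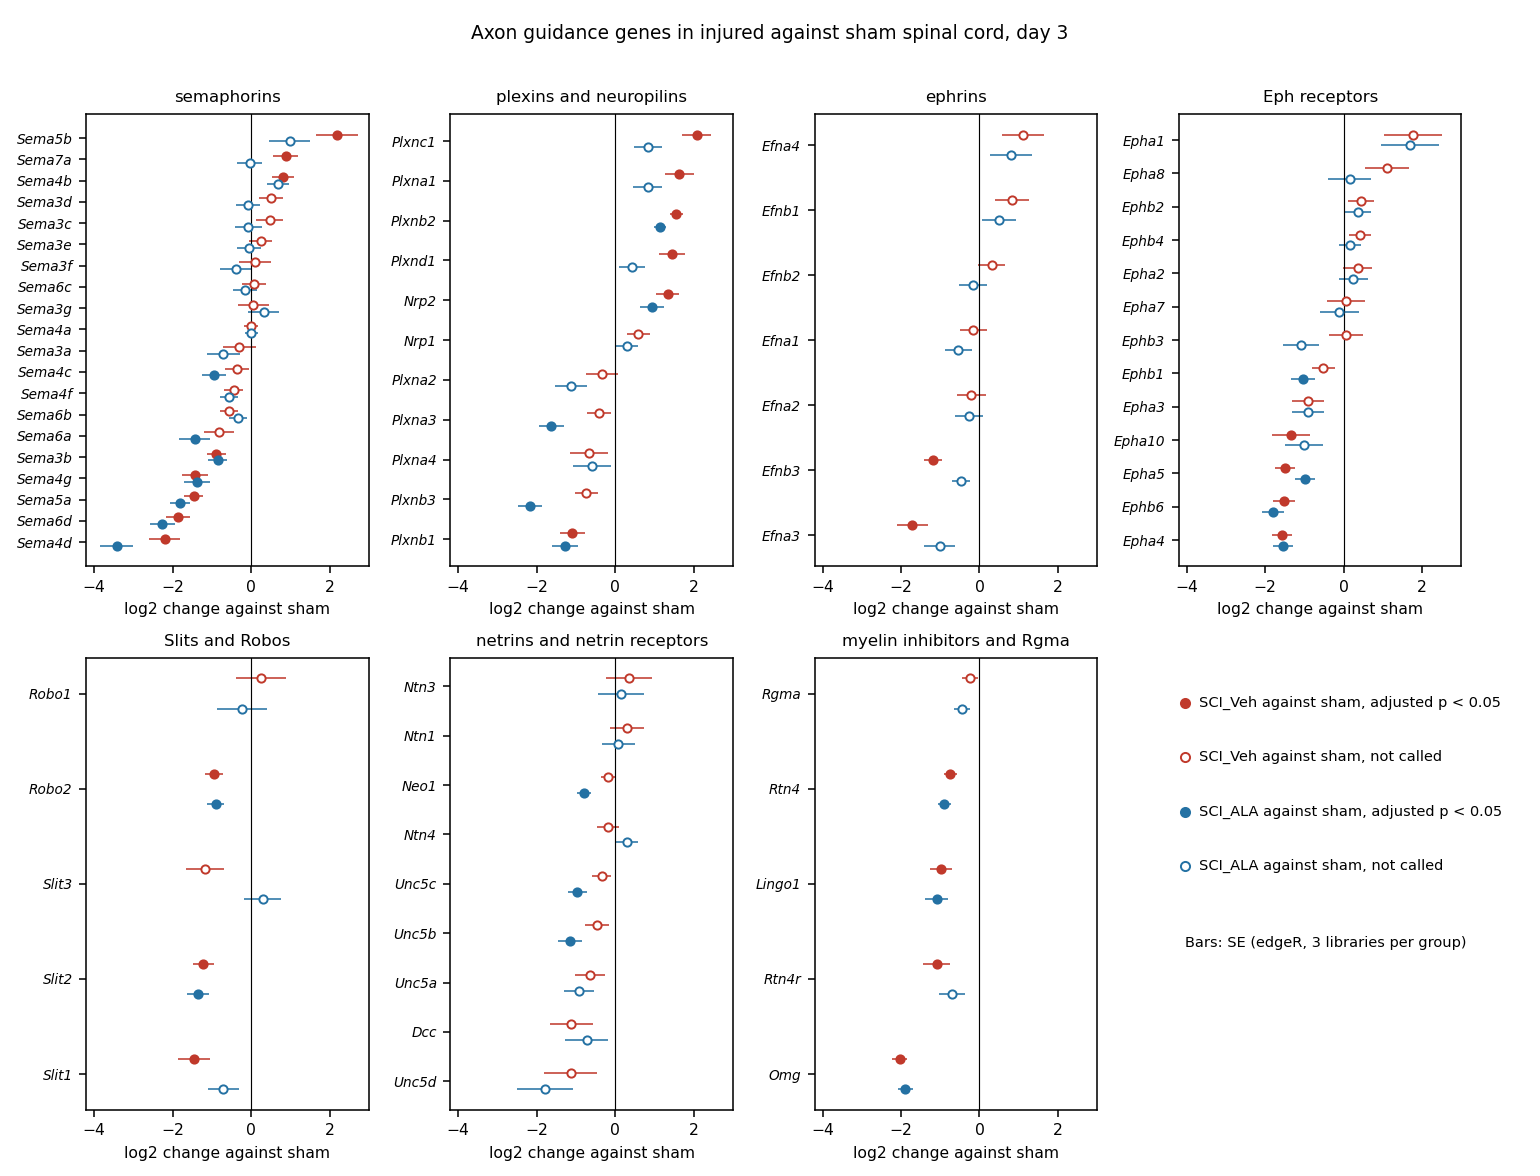
Log2 change against sham of each tested guidance gene (1 row per gene, 1 panel per family) in SCI_Veh and in SCI_ALA, with SE bars, filled where the edgeR adjusted p is below 0.05 and open otherwise. In SCI_Veh, 5 of the 8 called risers are plexins and neuropilins, and no netrin family gene is called.

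Of the 11 plexins and neuropilins, 5 were higher (45.5% against 19.5% of all genes) and 1 was lower (9.09% against 18.5%). The other 5 were not called (median log2 change 0.59 over the 11). Plxnb2, receptor of class 4 semaphorins, was at 80.4, 66.4 and 85.0 CPM (counts relative to library size, scaled by TMM) in sham, at 239, 252 and 191 in SCI_Veh and at 181, 168 and 163 in SCI_ALA. The 3 groups did not overlap, with SCI_ALA between the other two. Injury with saline raised it 2.94-fold (log2 1.56, SE 0.16, edgeR adjusted p = 2.58e-05). It lies on chromosome 7, 130135464 to 130151880, minus strand, in Rnor_6.0, the build of all gene positions given here. Plxnc1, the receptor of Sema7a, was at 5.57, 2.06 and 7.13 CPM in sham, at 18.8, 24.4 and 19.4 in SCI_Veh and at 9.04, 6.87 and 10.6 in SCI_ALA. Every SCI_Veh library lay above every library of the other groups, while SCI_ALA 2 lay within the sham range. The rise over sham was 4.21-fold (log2 2.07, SE 0.37, edgeR adjusted p = 0.00104; chromosome 7, 35850398 to 36000906, minus strand).

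Plxnd1, a receptor of Sema3e known from vessels, was at 23.7, 8.23 and 20.1 CPM in sham, at 48.0, 51.0 and 43.8 in SCI_Veh and at 25.3, 29.4 and 15.6 in SCI_ALA. SCI_Veh stood clear of both other groups, which overlapped. The change was 2.74-fold over sham (log2 1.45, SE 0.34, edgeR adjusted p = 0.00566; chromosome 4, 147854309 to 147893992, minus strand). Nrp2, the co-receptor for Sema3f, was at 17.2, 9.66 and 25.7 CPM in sham, at 46.6, 52.5 and 33.7 in SCI_Veh and at 35.0, 37.5 and 27.8 in SCI_ALA. All injured libraries lay above all sham libraries. The SCI_Veh level was 2.52-fold that of sham (log2 1.33, SE 0.30, edgeR adjusted p = 0.00481). Plxna1, which pairs with neuropilins to receive class 3 semaphorins, was at 18.7, 6.81 and 22.3 CPM in sham, at 47.3, 67.8 and 33.8 in SCI_Veh and at 30.8, 29.6 and 24.5 in SCI_ALA. Again the injured libraries lay above sham, and SCI_ALA lay below SCI_Veh. The rise in SCI_Veh was 3.11-fold (log2 1.64, SE 0.38, edgeR adjusted p = 0.00633). Sham 2 was the lowest library for all 5 of these receptors, and each kept its call without it.

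Promoters of Plxnb2, Plxnc1 and Plxnd1, which rose in SCI_Veh, are shown beside that of Omg, which fell and had the smallest p of the guidance genes. They are the 250 bases before the RefSeq start in GRCr8, read 5′ to 3′ on the gene's strand. Capitals mark GGGCGG or its reverse complement in the plexins, and TGACTCA or its reverse complement in Omg.
Plxnb2 (chr7:122137949-122138198, minus): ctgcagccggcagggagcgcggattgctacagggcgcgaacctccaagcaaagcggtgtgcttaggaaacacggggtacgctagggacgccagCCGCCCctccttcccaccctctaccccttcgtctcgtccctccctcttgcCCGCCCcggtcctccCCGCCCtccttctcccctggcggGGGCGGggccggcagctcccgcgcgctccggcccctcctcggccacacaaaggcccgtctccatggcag
Plxnc1 (chr7:31430606-31430855, minus): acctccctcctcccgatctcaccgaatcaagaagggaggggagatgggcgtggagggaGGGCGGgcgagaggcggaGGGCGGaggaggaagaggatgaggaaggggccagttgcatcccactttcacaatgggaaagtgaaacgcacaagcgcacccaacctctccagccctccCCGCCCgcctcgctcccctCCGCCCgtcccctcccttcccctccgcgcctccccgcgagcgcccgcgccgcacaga
Plxnd1 (chr4:150715188-150715437, minus): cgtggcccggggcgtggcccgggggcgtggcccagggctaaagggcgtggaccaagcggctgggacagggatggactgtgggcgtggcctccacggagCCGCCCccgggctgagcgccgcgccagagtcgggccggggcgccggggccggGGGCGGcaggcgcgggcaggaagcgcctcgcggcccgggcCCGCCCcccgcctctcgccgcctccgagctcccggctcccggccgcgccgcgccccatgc
Omg (chr10:64962051-64962300, minus): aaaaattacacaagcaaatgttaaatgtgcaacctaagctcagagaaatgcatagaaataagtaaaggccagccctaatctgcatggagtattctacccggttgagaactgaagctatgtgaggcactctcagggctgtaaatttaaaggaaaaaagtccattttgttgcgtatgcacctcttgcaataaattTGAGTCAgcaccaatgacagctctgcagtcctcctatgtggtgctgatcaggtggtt
The 3 plexin windows hold 4, 4 and 3 GGGCGG matches on either strand and have a GC content of 71.6%, 68.8% and 83.2%. The Omg window holds 1 TGACTCA match and has a GC content of 41.6%. A different motif was marked in Omg than in the plexins, so these match counts do not compare the windows. A promoter was found for 58 of the 74 members, and GGGCGG (the GC box) occurred in 32 of them, or 55.2%, against 30.5% of all 33469 promoters of this length. Among promoters of members that rose in SCI_Veh it occurred in 5 of 7, among those that fell in 5 of 10, and among those not called in 20 of 37. Only 7 of the 8 members that rose and 10 of the 19 that fell had a promoter here. Sema4d and Rtn4 were among those without. TGACTCA (the AP-1 motif) occurred in 2 of 58, both of genes that fell, or 3.45% against 4.05% of all promoters. CCAAT on either strand occurred in 32.8% against 34.0%, and TATAAA on either strand in 0 of 58 against 12.9%. By call, CCAAT occurred in 0 of 7 that rose, 1 of 10 that fell and 18 of 37 not called. Differences between these groups of promoters were not tested. The median GC content was 64.4% for members and 51.2% for all promoters. These matches describe letters and not bound sites.

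Among plexins and neuropilins that were not raised, Plxnb1, a receptor of Sema4d, fell 2.14-fold in SCI_Veh (log2 -1.10, SE 0.32, edgeR adjusted p = 0.0176), from 16.1 to 28.8 CPM in sham to 8.77 to 15.4. That call was lost without sham 1, sham 3, SCI_Veh 2 or SCI_Veh 3, at adjusted p = 0.0558, 0.0654, 0.0729 and 0.0726. Nrp1, co-receptor of Sema3a, was at 51.3, 23.3 and 54.3 CPM in sham, at 60.8, 82.0 and 51.8 in SCI_Veh and at 52.7, 60.1 and 45.7 in SCI_ALA. Its groups overlapped and it did not pass (log2 0.59, SE 0.28, edgeR adjusted p = 0.121).

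**Figure D3:**
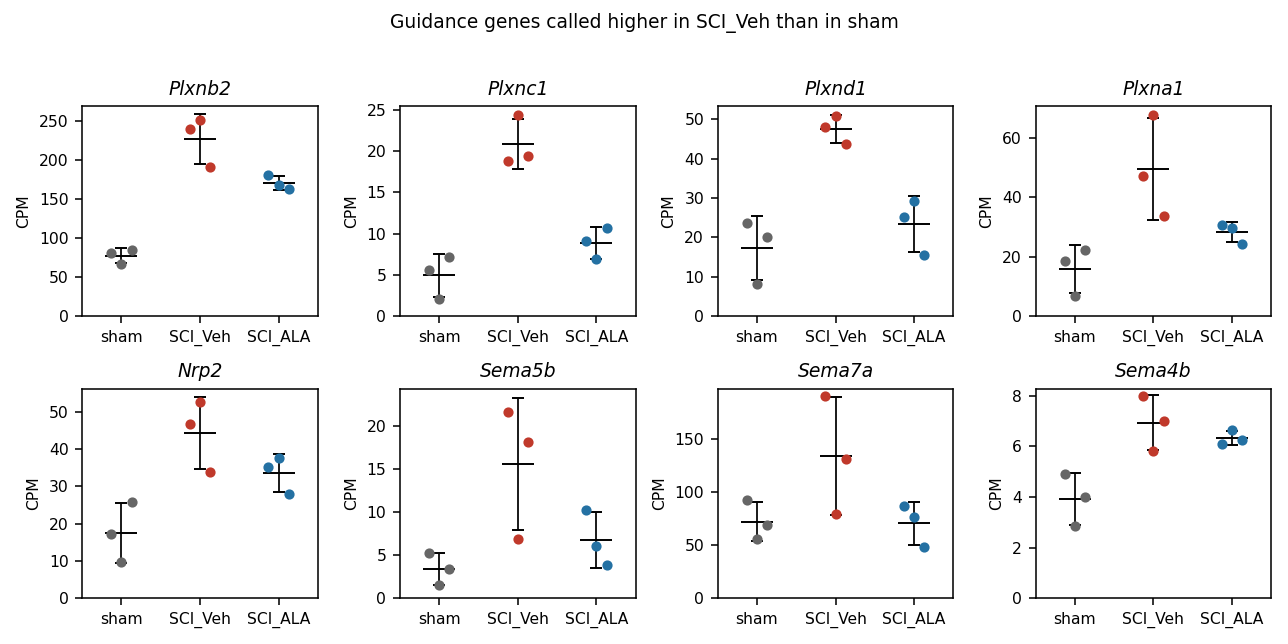
CPM in each library (points) for the 8 guidance genes higher in SCI_Veh than in sham, with the mean as a line and the SD over 3 libraries as bars. For Plxnb2 the 3 groups do not overlap, and for Plxnc1 and Plxnd1 all SCI_Veh points lie above all sham and SCI_ALA points.

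Of the 20 semaphorins, 3 rose (15%), 5 fell (25%) and 12 were not called (median log2 change -0.15). Of all genes, 19.5% were called higher and 18.5% lower. Sema4d, a transmembrane semaphorin made by oligodendrocytes and by lymphocytes, was at 1073, 542 and 401 CPM in sham, at 193, 102 and 143 in SCI_Veh and at 80.9, 39.0 and 68.3 in SCI_ALA. The 3 groups did not overlap and stood in that order, with a wide spread in sham. In SCI_Veh it was down 4.60-fold (log2 -2.20, SE 0.40, edgeR adjusted p = 0.00174; chromosome 17, 13488376 to 13553974, plus strand). Sema6d, a transmembrane ligand of Plxna1, was at 134, 72.5 and 97.1 CPM in sham, at 32.6, 22.1 and 29.0 in SCI_Veh and at 26.9, 24.8 and 11.7 in SCI_ALA. Both injured groups lay below sham and overlapped each other. The fall was 3.63-fold (log2 -1.86, SE 0.31, edgeR adjusted p = 0.000769). Sema5a, a semaphorin with thrombospondin repeats, was at 40.6, 27.7 and 31.1 CPM in sham, at 11.1, 9.21 and 15.8 in SCI_Veh and at 11.7, 7.91 and 8.72 in SCI_ALA. It too lay lower in every injured library than in any sham library, 2.75-fold in SCI_Veh (log2 -1.46, SE 0.25, edgeR adjusted p = 0.000807). Sema4g was at 12, 7.60 and 10.6 CPM in sham, at 3.93, 3.54 and 3.78 in SCI_Veh and at 4.69, 4.79 and 2.20 in SCI_ALA. The groups separated likewise, with a 2.68-fold fall in SCI_Veh (log2 -1.42, SE 0.33, edgeR adjusted p = 0.00581). Sema3b, a secreted semaphorin, ranged from 26.5 to 45.2 CPM in sham and from 13.8 to 21.1 in SCI_Veh, 1.85-fold lower (log2 -0.89, SE 0.24, edgeR adjusted p = 0.0125). Its call was lost without sham 1 (adjusted p = 0.0656) or SCI_Veh 3 (adjusted p = 0.0603).

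Among semaphorins that rose, Sema5b, the paralog of Sema5a, ranged from 1.50 to 5.24 CPM in sham and from 6.94 to 21.7 in SCI_Veh, 4.58-fold higher (log2 2.19, SE 0.53, edgeR adjusted p = 0.00724). Sema5a and Sema5b were thus called in opposite directions, and the difference between them was not tested. Sema7a was at 92.6, 55.7 and 68.8 CPM in sham, at 191, 79.6 and 132 in SCI_Veh and at 87.6, 76.8 and 48.4 in SCI_ALA. SCI_Veh 2 lay within the sham range. Sema7a passed narrowly (1.85-fold, log2 0.89, SE 0.32, edgeR adjusted p = 0.0462) and did not pass without sham 2 (adjusted p = 0.178), without SCI_Veh 1 (0.183) or with any of 4 other libraries left out (adjusted p between 0.0502 and 0.116). Sema4b ranged from 2.85 to 4.92 CPM in sham and from 5.80 to 7.98 in SCI_Veh (1.76-fold, log2 0.82, SE 0.29, edgeR adjusted p = 0.0400). It lost its call without sham 2 (adjusted p = 0.109), without SCI_Veh 1 (0.130) and with any other library left out except sham 1 (adjusted p between 0.0534 and 0.0830). Sema3a, the secreted repellent of sensory axons found in scar fibroblasts, was at 2.75, 4.04 and 7.93 CPM in sham, at 3.41, 5.80 and 2.77 in SCI_Veh and at 3.01, 3.05 and 2.95 in SCI_ALA. Its groups overlapped (log2 -0.30, SE 0.42, edgeR adjusted p = 0.613), and the sign turned to 0.26 without sham 3.

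In the group of myelin inhibitors, their receptors and Rgma, 4 of 5 tested genes fell, all but Rgma (median log2 change -0.98). That is 80% against 18.5% of all genes called lower. Omg was at 218, 259 and 194 CPM in sham, at 63.7, 40.9 and 59.8 in SCI_Veh and at 61.4, 65.8 and 53.3 in SCI_ALA. The injured libraries lay far below sham and overlapped each other. Omg was 4.08-fold lower in SCI_Veh (log2 -2.03, SE 0.19, edgeR adjusted p = 1.67e-05; chromosome 10, 66845654 to 66848388, minus strand). It lies inside Nf1 on the opposite strand, and the library kit does not mark strand, so reads of these genes cannot be told apart there. Nf1 had a mean of 361 counts per library against 1626 for Omg. Rtn4 was at 973, 1032 and 905 CPM in sham, at 587, 481 and 665 in SCI_Veh and at 545, 553 and 465 in SCI_ALA. All injured libraries were below all sham libraries, by a smaller factor than for Omg: 1.68-fold in SCI_Veh (log2 -0.75, SE 0.17, edgeR adjusted p = 0.00440; chromosome 14, 114126943 to 114174458, plus strand).

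The receptor side of this group was less abundant. Lingo1 was at 34.6, 17.5 and 31.0 CPM in sham, at 15.6, 8.94 and 17.5 in SCI_Veh and at 14.4, 13.1 and 11.5 in SCI_ALA. SCI_Veh 3 reached the level of sham 2, and the fall was 1.97-fold (log2 -0.98, SE 0.29, edgeR adjusted p = 0.0195). Without sham 1, sham 3 or SCI_Veh 2 it did not pass (adjusted p = 0.0817, 0.0581 and 0.0796). Rtn4r was at 8.0, 9.42 and 4.73 CPM in sham, at 3.54, 4.34 and 2.5 in SCI_Veh and at 3.89, 5.21 and 4.46 in SCI_ALA. SCI_Veh lay below sham by 2.13-fold (log2 -1.09, SE 0.34, edgeR adjusted p = 0.0249). The call was lost without sham 1, sham 2, SCI_Veh 1 or SCI_Veh 3 (adjusted p = 0.0706, 0.0758, 0.0692 and 0.0949). Rgma, the repulsive ligand of neogenin, was at 39.4, 28.1 and 31.5 CPM in sham, at 33.9, 24.6 and 25.4 in SCI_Veh and at 26.3, 27.3 and 18.7 in SCI_ALA. Its groups overlapped (log2 -0.24, SE 0.21, edgeR adjusted p = 0.390).

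In bulk tissue, fewer cells of a type and less RNA per cell cannot be told apart, and cell type markers moved with these genes. In SCI_Veh against sham, 19.5% of all genes were called higher and 18.5% lower. Of 10 myelin markers 7 were lower in SCI_Veh and 0 higher, their summed level falling from 47237 to 84703 CPM in sham to 19357 to 32551 in SCI_Veh, with 23990 to 33521 in SCI_ALA. Of 10 neuron markers 8 were lower, with sums of 3911 to 6030 CPM in sham, 1593 to 2475 in SCI_Veh and 2240 to 2922 in SCI_ALA. Of 10 astrocyte markers 9 were lower, with sums of 8727 to 11534, 6016 to 8502 and 9269 to 9686 CPM in the same order. All 11 microglia and macrophage markers were higher, with sums of 714 to 981 CPM in sham, 6169 to 7282 in SCI_Veh and 4858 to 6244 in SCI_ALA. All 7 markers of dividing cells were higher as well, from 25.9 to 58.6 CPM in sham to 494 to 505 in SCI_Veh and 323 to 399 in SCI_ALA. Of 8 tested endothelial markers 2 were higher and 1 lower, with sums of 68.5 to 103 CPM in sham and 122 to 228 in SCI_Veh, and Cldn5 was at 0 in every library. No other defining marker was at 0 throughout these lists. Their part in the changes of guidance genes was not tested.

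**Figure D4:**
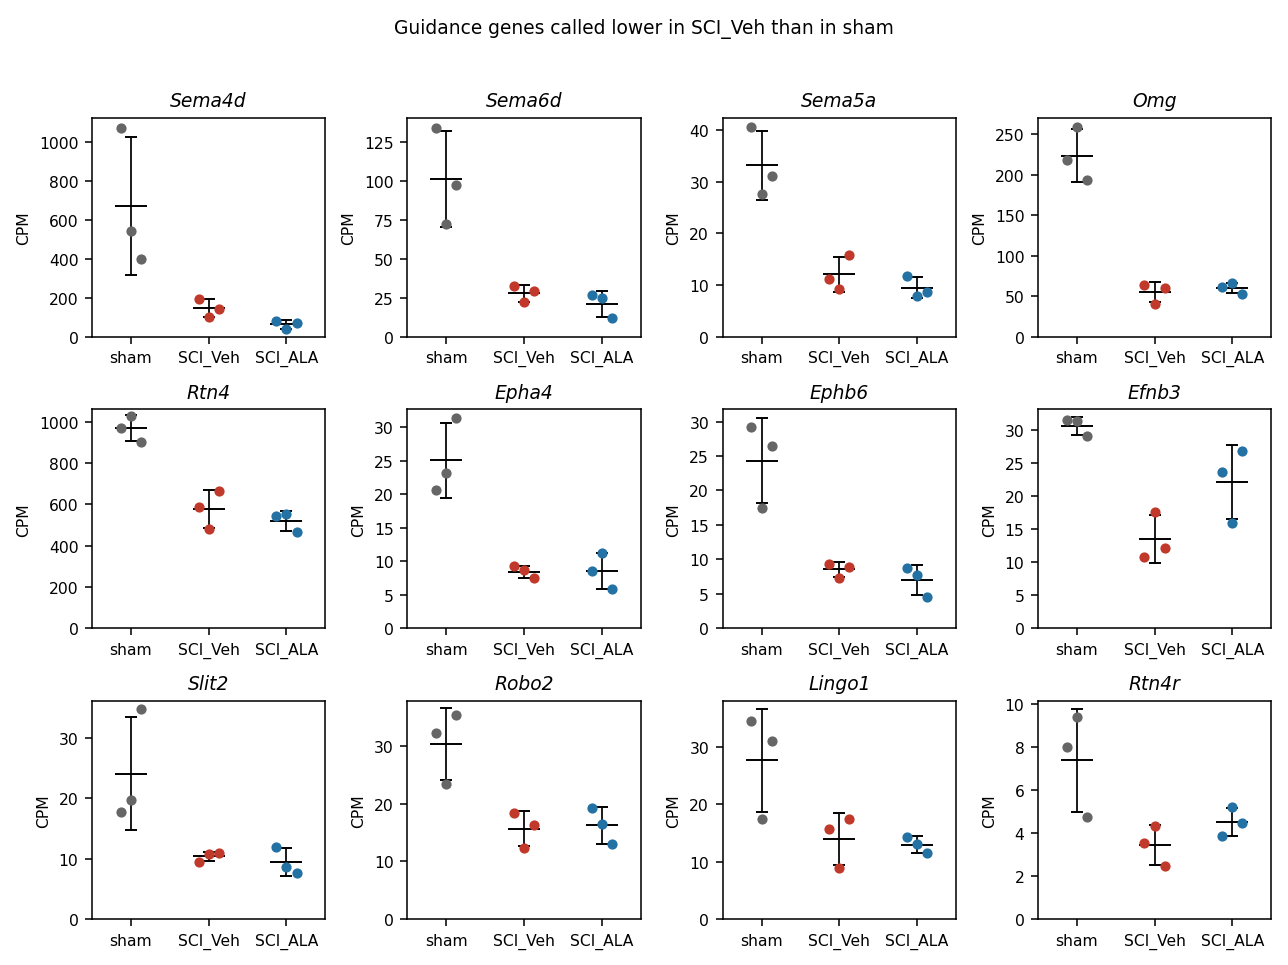
CPM in each library (points) for 12 of the guidance genes lower in SCI_Veh than in sham, with the mean as a line and the SD over 3 libraries as bars. For Omg, Rtn4, Sema4d and Sema6d every injured library lies below every sham library.

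Ephrins fell in 2 of 7 tested genes (28.6%) and Eph receptors in 4 of 13 (30.8%), against 18.5% of all genes called lower. No member of either family was called higher, against 19.5% of all genes. Efnb3, a transmembrane ephrin that in mice stops corticospinal axons at the midline and is found in myelin, was at 31.5, 31.3 and 29.1 CPM in sham, at 10.7, 17.6 and 12.1 in SCI_Veh and at 23.6, 15.9 and 26.8 in SCI_ALA. Both injured groups lay below the tight sham group, and SCI_ALA 1 and 3 lay above every SCI_Veh library. Efnb3 was 2.27-fold lower in SCI_Veh (log2 -1.18, SE 0.24, edgeR adjusted p = 0.00216). Efna3, a membrane-anchored ephrin, was at 6.10, 8.31 and 5.66 CPM in sham, at 3.15, 1.0 and 1.96 in SCI_Veh and at 3.01, 3.75 and 3.16 in SCI_ALA. Sham lay above both injured groups, 3.27-fold above SCI_Veh (log2 -1.71, SE 0.41, edgeR adjusted p = 0.00618).

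Epha4, a receptor of both ephrin classes in neurons and astrocytes, was at 20.7, 23.2 and 31.4 CPM in sham, at 9.21, 8.61 and 7.42 in SCI_Veh and at 8.58, 11.2 and 5.84 in SCI_ALA. Both injured groups lay below sham and overlapped each other. Its fall in SCI_Veh was 2.98-fold (log2 -1.57, SE 0.26, edgeR adjusted p = 0.000678; chromosome 9, 83111222 to 83253458, minus strand). Epha5 was at 14.8, 16.5 and 17.4 CPM in sham, at 4.76, 5.27 and 7.22 in SCI_Veh and at 10.5, 8.12 and 6.04 in SCI_ALA. It was 2.81-fold lower in SCI_Veh (log2 -1.49, SE 0.26, edgeR adjusted p = 0.000993), with SCI_ALA 1 and 2 above all SCI_Veh libraries. Ephb6, an Eph receptor without kinase activity, was at 29.2, 17.4 and 26.4 CPM in sham, at 9.34, 7.34 and 8.84 in SCI_Veh and at 8.71, 7.70 and 4.53 in SCI_ALA. The fall was 2.86-fold (log2 -1.52, SE 0.28, edgeR adjusted p = 0.00125), and no injured library reached sham. Epha10 was at 8.13, 3.80 and 6.66 CPM in sham, at 3.03, 0.867 and 3.44 in SCI_Veh and at 4.09, 2.29 and 2.88 in SCI_ALA. SCI_Veh lay below sham (2.53-fold, log2 -1.34, SE 0.49), but the call (edgeR adjusted p = 0.0482) was lost with any library left out except sham 2 or SCI_Veh 3, at adjusted p between 0.0561 and 0.150. Epha1, with 12.2 counts on average, overlaps Zyx on the opposite strand, which had 2200, so its counts are uncertain.

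Of 5 tested Slits and Robos, 3 fell (60% against 18.5% of all genes) and 0 rose, against 19.5% (median log2 change -1.16). Slit2, a secreted repellent, was at 17.7, 19.7 and 34.7 CPM in sham, at 9.46, 10.7 and 10.9 in SCI_Veh and at 12, 8.68 and 7.69 in SCI_ALA. Its receptor Robo2 was at 32.3, 23.3 and 35.4 CPM in sham, at 18.3, 12.4 and 16.3 in SCI_Veh and at 19.2, 16.4 and 13 in SCI_ALA. For both genes the injured groups lay below sham and overlapped each other. In SCI_Veh Slit2 was 2.32-fold lower (log2 -1.21, SE 0.27, edgeR adjusted p = 0.00471). Robo2 was 1.94-fold lower (log2 -0.95, SE 0.23, edgeR adjusted p = 0.00619). Slit1, the least abundant of these, was at 6.23, 4.19 and 6.73 CPM in sham, at 1.80, 2.0 and 2.43 in SCI_Veh and at 4.89, 3.82 and 1.79 in SCI_ALA. The 2.75-fold fall in SCI_Veh (log2 -1.46, SE 0.40, edgeR adjusted p = 0.0140) separated the groups, and did not pass without SCI_Veh 1 (adjusted p = 0.0559). Robo1 was at 18, 3.40 and 26.6 CPM in sham, at 21.2, 24.3 and 11.9 in SCI_Veh and at 19.5, 13.9 and 7.90 in SCI_ALA. Sham 2 stood far below the other sham libraries, the groups overlapped (log2 0.25, SE 0.63, edgeR adjusted p = 0.788), and without sham 2 the value was -0.24.

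By edgeR 0 of 9 tested netrins and netrin receptors passed in SCI_Veh against sham, and 0 had an unadjusted p below 0.05, where 23.7% of all genes were higher and 23.4% lower at that p (median log2 change -0.35). Ntn1, the midline attractant, was at 12.1, 18.5 and 43.2 CPM in sham, at 29.0, 42.5 and 19.4 in SCI_Veh and at 26.7, 28.9 and 22.5 in SCI_ALA. Sham 3 lay just above the highest SCI_Veh library while the other sham libraries lay below the SCI_Veh range. The log2 change was 0.30 (SE 0.42, edgeR adjusted p = 0.612), and without sham 3 it was 1.01 and passed (adjusted p = 0.0303). Dcc, the attractive netrin receptor, was at 3.87, 0.871 and 2.27 CPM in sham, at 1.35, 0.867 and 1.01 in SCI_Veh and at 1.67, 1.18 and 1.37 in SCI_ALA. It missed the threshold (log2 -1.12, SE 0.56, edgeR adjusted p = 0.134) and passed without sham 2 (log2 -1.52, adjusted p = 0.0292). Neo1, which encodes neogenin, a receptor of netrins and of Rgma, was at 62.7, 52.7 and 57.0 CPM in sham, at 54.0, 50.8 and 47.0 in SCI_Veh and at 40.2, 34.1 and 24.4 in SCI_ALA. Sham and SCI_Veh overlapped (log2 -0.18, SE 0.18, edgeR adjusted p = 0.448), and every SCI_ALA library lay below both.

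SCI_ALA and SCI_Veh differed in 0 of the 70 tested guidance genes by edgeR, where 0.0779% of all genes were called higher, 0.042% lower and 0.12% in either direction. Most values were below 0, those of plexins among them. At an unadjusted p below 0.05, 2 members were higher (2.86% against 6.31% of all genes) and 11 lower (15.7% against 5.98%). DESeq2 called 4 members lower (Plxnb3, Plxna3, Plxnc1 and Sema4d) and 0 higher. Of all 16678 genes it called 173 lower and 243 higher, or 2.49% in either direction. The median log2 change was -0.26 over the members and -0.01 over all genes, and 51 of 70 members were below 0, or 72.9%, against 50.8% of all genes. Of the 11 plexins and neuropilins 10 were below 0 (median -0.78), with 5 at an unadjusted p below 0.05.

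Plxnb3, a receptor of Sema5a known from oligodendrocytes, was at 52.5, 42.6 and 28.0 CPM in sham, at 28.8, 16.7 and 28.1 in SCI_Veh and at 12.4, 7.01 and 8.04 in SCI_ALA. SCI_ALA lay below both other groups, and SCI_Veh overlapped sham. Against SCI_Veh its log2 change was -1.42 (SE 0.30, edgeR unadjusted p = 0.000485, adjusted p = 0.110), and the adjusted p was 0.00155 by DESeq2 and 0.0471 in an edgeR fit of these groups alone. Plxna3, a co-receptor partner of neuropilins, was at 22.9, 10.1 and 14.1 CPM in sham, at 15.5, 10.7 and 9.04 in SCI_Veh and at 5.02, 5.83 and 4.4 in SCI_ALA. Here too SCI_ALA stood below every other library (log2 -1.21, SE 0.32, edgeR unadjusted p = 0.00279, adjusted p = 0.175, DESeq2 adjusted p = 0.0281).

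Plxnc1 and Plxnd1, which had risen after injury, had negative values in SCI_ALA against SCI_Veh that did not pass by edgeR. Plxnc1 differed by a log2 of -1.24 (SE 0.35, edgeR unadjusted p = 0.00459, adjusted p = 0.199), and its adjusted p was 0.0380 by DESeq2, 0.0388 with these groups alone and 0.0459 without sham 2. Plxnd1 differed by -1.02 (SE 0.33, edgeR unadjusted p = 0.00983, adjusted p = 0.252). In Neo1 the difference was -0.62 (SE 0.18, edgeR unadjusted p = 0.00518, adjusted p = 0.209), and in Sema4d, which had fallen after injury, -1.22 (SE 0.39, edgeR unadjusted p = 0.0105, adjusted p = 0.258, DESeq2 adjusted p = 0.0348). In these 4 genes, named for their small p, all SCI_ALA libraries lay below all SCI_Veh libraries, as they did in 12 of the 70 members (17.1%) and in 12.2% of all genes. This comparison and that of SCI_Veh with sham share the SCI_Veh libraries, so their values are only set side by side.

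Slit3 and Efnb3 went the other way. Slit3, a secreted Robo ligand, was at 8.46, 5.30 and 19.3 CPM in sham, at 3.93, 3.80 and 7.02 in SCI_Veh and at 8.04, 12.5 and 20.1 in SCI_ALA. SCI_ALA lay above SCI_Veh and overlapped sham (log2 1.46, SE 0.48, edgeR unadjusted p = 0.0109, adjusted p = 0.261). Efnb3 was higher by a log2 of 0.71 (SE 0.23, edgeR unadjusted p = 0.0105, adjusted p = 0.258), with SCI_ALA 2 inside the SCI_Veh range.

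Gene length moved with this comparison. Across all 16678 tested genes the log2 change of SCI_ALA against SCI_Veh correlated with gene length at a Spearman rho of -0.277, and across the 70 guidance genes it was -0.220. Genes are not independent replicates, and all points share the same libraries. With each library's length trend removed, the correlation over members was -0.05, their median was -0.16, 47 of 70 were below 0, and 0 were called. At an unadjusted p below 0.05 there were then 4 members higher, against 7.43% of all genes, and 9 lower, against 5.5%. Plxnb3 then stood at -1.25 (SE 0.30, unadjusted p = 0.00176), Plxna3 at -0.97 (SE 0.28), Plxnc1 at -1.09 (SE 0.33), Plxnd1 at -0.84 (SE 0.27), Sema4d at -1.10 (SE 0.40) and Neo1 at -0.49 (SE 0.14). Slit3 stood at 1.68 (SE 0.48) and Efnb3 at 0.78 (SE 0.24). Plxnb2 moved from -0.41 (unadjusted p = 0.0213) to -0.20 (unadjusted p = 0.127). Of 9 markers of oligodendrocyte precursors 8 were below 0 in SCI_ALA against SCI_Veh and 1 was called lower, with sums of 924 to 1094 CPM in sham, 808 to 1030 in SCI_Veh and 562 to 768 in SCI_ALA. None of these precursor markers was at 0. The other marker lists had no calls here. Below 0 were 8 of 8 tested endothelial markers, 7 of 7 of dividing cells, 7 of 10 of pericytes and fibroblasts and 6 of 8 of Schwann cells. So were 7 of 11 of microglia and macrophages and 5 of 10 of myelin, against 50.8% of all genes. Fewer were below 0 for astrocytes (2 of 10), neurons (1 of 10), neutrophils (1 of 7), lymphocytes (1 of 5) and ependymal cells (0 of 5). The part of any list in the result was not tested.

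**Figure D5:**
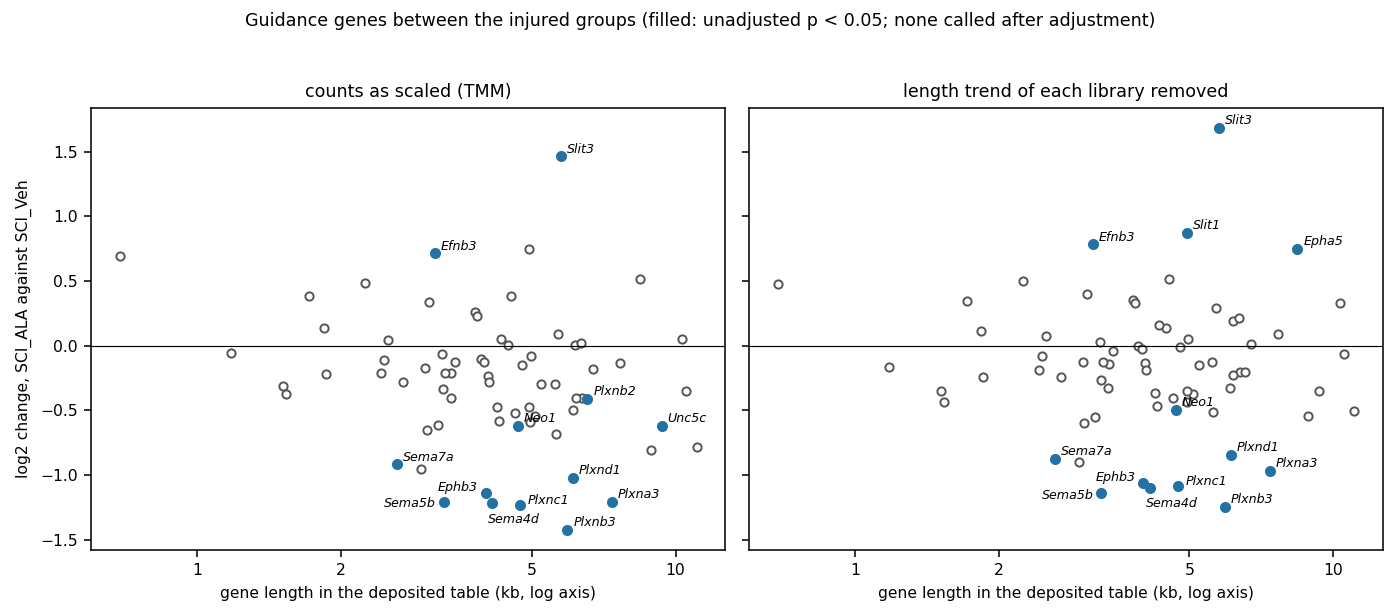
Log2 change of SCI_ALA against SCI_Veh for each tested guidance gene (vertical) against gene length in kilobases (horizontal, log axis), as scaled on the left and with each library's length trend removed on the right, filled at an unadjusted p below 0.05. Most points lie below 0, and the lowest on the left are Plxnb3 at -1.42, Plxnc1 at -1.24, Sema4d at -1.22 and Plxna3 at -1.21.

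Against sham, SCI_ALA had 2 guidance genes higher, Plxnb2 and Nrp2, and 22 lower. These are 2.86% against 17.3% of all genes called higher and 31.4% against 15.8% called lower. The median log2 change was -0.55 over the members and -0.01 over all genes, and with the length trend removed it was -0.45. Plxnb2 was 2.21-fold higher (log2 1.14, SE 0.16, edgeR adjusted p = 0.000257) and Nrp2 1.91-fold (log2 0.93, SE 0.30, edgeR adjusted p = 0.0327). Nrp2 did not pass without sham 1, sham 2, SCI_Veh 1, SCI_ALA 1 or SCI_ALA 2 (adjusted p between 0.0501 and 0.0982), nor with a replicate block (0.0567). Sema4d was 10.7-fold lower (log2 -3.42, SE 0.42, edgeR adjusted p = 0.000216), the lowest value among the members in this comparison, Omg 3.72-fold lower (log2 -1.89, SE 0.19, adjusted p = 3.52e-05) and Rtn4 1.86-fold lower (log2 -0.90, SE 0.17, adjusted p = 0.00179). Without SCI_ALA 3 the test called 2 higher and 15 lower, and without sham 2 it called 1 and 25.

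Calls against sham differed between the injured groups for 19 of the 70 tested guidance genes. The share of all genes whose calls differ in this way was not counted, so the number is not read as particular to guidance genes. Of these, 11 passed in SCI_Veh but not in SCI_ALA: Plxnc1, Plxnd1, Plxna1, Sema5b, Sema7a and Sema4b, all higher in SCI_Veh, and Efna3, Efnb3, Epha10, Slit1 and Rtn4r, all lower. Their log2 values in SCI_ALA against sham were 0.84, 0.43, 0.83, 0.99, -0.03 and 0.69 for those higher in SCI_Veh. For the lower ones they were -1.01, -0.47, -1.01, -0.71 and -0.71. Another 8 passed only in SCI_ALA, all lower: Plxna3, Plxnb3, Sema4c, Sema6a, Ephb1, Neo1, Unc5b and Unc5c. For these the log2 values in SCI_ALA were -1.63, -2.16, -0.94, -1.43, -1.04, -0.80, -1.15 and -0.97, and in SCI_Veh -0.42, -0.74, -0.36, -0.82, -0.52, -0.18, -0.47 and -0.35. Netrin receptors thus passed in 3 cases (Neo1, Unc5b and Unc5c, the last 2 repulsive receptors) against sham in SCI_ALA. That is 33.3% of the 9 tested genes of the netrin family, against 15.8% of all genes called lower. By limma on filtered FPKM at pseudocounts of 1 and 0.1, Unc5c (adjusted p = 0.0774 and 0.0837) and Sema4c (0.0592 and 0.0566) did not pass. By limma on unfiltered log2(FPKM + 1), Sema4c, Sema6a, Ephb1 and Unc5b did not (0.111, 0.0565, 0.0560 and 0.0548). Neo1, Plxna3 and Plxnb3 kept their calls in all 22 alternatives. Leaving out sham 1 ended the calls of Sema4c, Sema6a, Ephb1 and Unc5b (adjusted p = 0.192, 0.0782, 0.0793 and 0.0667), and so did leaving out SCI_ALA 3 (0.128, 0.0657, 0.0763 and 0.0685). Sema4c also lost its call without SCI_ALA 2 (0.109) or SCI_Veh 3 (0.0524) and Ephb1 without SCI_ALA 2 (0.0577), while Efna3 passed without SCI_Veh 2 (0.0392) and Plxnc1 without sham 3 (0.0379). With the length trend removed, Plxna1, Plxnc1, Sema4b and Efna3 also passed in SCI_ALA against sham (adjusted p = 0.0106, 0.0338, 0.0437 and 0.0157), and Efna3 passed by DESeq2 (0.0355) and by limma on filtered FPKM (0.0291 and 0.0486 at pseudocounts of 1 and 0.1). A call in only 1 of these comparisons does not show a difference between the injured groups, and the direct test of that difference called 0 of the 19 by edgeR.

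Downstream of the receptors, genes of signal transduction moved in both directions after injury with saline, where 19.5% of all genes were called higher and 18.5% lower. Of 25 tested genes of semaphorin and plexin transduction, 7 rose and 7 fell (median log2 change 0.09). Fes, a kinase that binds plexins, was at 7.08, 2.61 and 4.86 CPM in sham and at 30.0, 26.1 and 29.3 in SCI_Veh, 5.82-fold higher. Mical1, the oxidoreductase that takes apart actin filaments below plexins, rose 3.47-fold and Sh3bp1, a Rac inhibitor, 2.58-fold, while Rnd2, a small GTPase, fell 3.79-fold. Of 20 genes of ephrin and Eph transduction 5 rose and 4 fell (median 0.36). Chn1, the Rac inhibitor below Epha4, was at 124, 172 and 144 CPM in sham and at 27.9, 24 and 33.6 in SCI_Veh, 5.14-fold lower. Ngef, an Eph-linked exchange factor of RhoA, fell 1.93-fold, and Vav2 and Src rose 2.15-fold and 1.64-fold.

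Slit and Robo transduction had 5 of 13 genes higher and 2 lower (median 0.44). Vasp, Myo9b and Cap1, which act on actin or on RhoA, rose 2.77-fold, 2.28-fold and 1.67-fold, and Usp33, which binds Robo1, fell 1.89-fold. Netrin receptor transduction had 0 of 13 higher and 5 lower (median -0.32), with 1 higher at an unadjusted p below 0.05. Pak1, a kinase activated by Rac, fell 2.45-fold, Elmo1 2.12-fold and Ablim3 3.15-fold. In the RhoA, ROCK and cofilin module 4 of 14 rose and 1 fell (median 0.25). Pfn1, which encodes profilin, rose 2.99-fold, Cfl1, which encodes cofilin, 1.94-fold and Arhgdia 1.81-fold, and Limk1, the kinase that inactivates cofilin, fell 1.75-fold. Among 24 other guidance and inhibitor genes, 5 rose and 6 fell (median -0.23). Cxcr4, the chemokine receptor, rose 4.04-fold and Met, the receptor of hepatocyte growth factor, 4.60-fold, while Ntng1, a netrin relative, fell 5.10-fold and Rtn3, a paralog of Rtn4, 2.09-fold. Each gene named in these lists passed by edgeR (largest adjusted p 0.00470). In SCI_ALA against SCI_Veh edgeR called 0 genes in all 6 lists. At an unadjusted p below 0.05, which 6.31% of all genes passed as higher and 5.98% as lower, there were 2 higher and 1 lower, 2 and 0, 0 and 3, 1 and 0, 1 and 0, and 1 and 5 in the order given.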

How the data were processed

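RNA from spinal cord was sequenced in 9 libraries (NEBNext Ultra kit per the labels' protocols, a kit that does not mark strand). The authors deposited whole-number gene counts and FPKM values; per the submitters' processing notes the tools were HISAT2 2.0.5, featureCounts 1.5.0-p3 and DESeq2 1.20.0 and the build Rnor_6.0 (rn6). Groups came from the sample titles and treatments. Depth was 13857771 to 15736132 counts per library, and replicates of each group differed by more than sampling noise (chi-square over degrees of freedom 18.6 to 68.0).

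Counts were tested with edgeR 4.0.16 (limma 3.58.1, R 4.3.3): 16678 of 36051 genes kept by filterByExpr at a minimum count of 10 and total of 15, TMM factors, robust quasi-likelihood over all 9 libraries with group means (6 residual degrees of freedom), and Benjamini-Hochberg adjustment over all genes tested. Each library's length trend was a loess of span 0.5. DESeq2 1.42.0 and limma on log2 FPKM (pseudocounts 1 and 0.1) were alternatives. Figures used Python 3.11.15 and matplotlib 3.10.9.

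Named were all called members in SCI_Veh against sham, the 8 smallest p in SCI_ALA against SCI_Veh, members whose call against sham differed, 20 fixed genes, and up to 4 genes per transduction list. A gene of these lists that the rule names is not reported here. Members and lists were chosen with earlier results of these data known. Promoters came from RefSeq (GRCr8). No members were dropped for overlap, though 19 overlap another gene's span, 2 of them (Omg and Epha1) a gene with a mean of at least 10 counts.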

Additional observations from a re-analysis of the deposited data

How the results depend on the processing

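Counts of called guidance genes were recomputed under 23 alternatives. In SCI_Veh against sham all counts were within 1.5 times of 8 higher and 19 lower, with leave-one-out ranges of 6 to 9 and 14 to 22. In SCI_ALA against SCI_Veh the count lower was 4 by DESeq2, 2 with only those groups fitted and 0 to 1 with a library left out, against 0, and the count higher was 0 throughout. In SCI_ALA against sham the 2 higher became 1 with library totals, 1 with limma on log2(FPKM + 1) without a filter, 1 at a log2 change of at least 1, 1 without sham 2 and SCI_ALA 3 together, 5 with the length trend removed, and 1 to 3 with a library left out. The 22 lower ran from 15 to 25 with a library left out. The cause was not tested.

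Of the named genes' values, 5 changed sign in SCI_Veh against sham and 5 in SCI_ALA against sham, none of them called: Ntn1 ran from -0.023 to 1.01, Sema3a from -0.66 to 0.26 and Robo1 from -0.24 to 0.83 with a library left out. Robo1 was at -0.24 without sham 2 and SCI_ALA 3 together. Sema7a in SCI_ALA against sham was at 0.015 with library totals, 0.0094 with the length trend removed and 0.024 without those libraries, and ran from -0.20 to 0.21 with a library left out. Over all alternatives, calls were lost in 56 of 592 values of the 27 called genes in SCI_Veh against sham and in 34 of 374 values of 17 called genes named in SCI_ALA against sham. Named genes that were not called gained a call in 3 of 151 values, in 7 of 176 in SCI_ALA against SCI_Veh and in 11 of 240 in SCI_ALA against sham. Epha10, Sema4b and Sema7a lost theirs in 12, 14 and 12 of 22.

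The labels give shared replicate numbers but not that they mark a shared animal or day, and deviations of same-numbered libraries correlated by -0.09 to 0.18, so the numbers were not taken as pairs. With the replicate block the counts were 8 higher and 21 lower in SCI_Veh against sham, 0 and 0 in SCI_ALA against SCI_Veh, and 2 and 23 in SCI_ALA against sham. The 2 there were Plxnb2 and Sema5b (adjusted p = 0.0496), while Nrp2 lost its call (0.0567). With 3 libraries a group, members at a few CPM such as Dcc and Sema3a have SEs of 0.4 to 0.6 on the log2 scale, which limits the size of change that could be called there.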

Other observations

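Efna3, Efna1 and Efna4 lie close together on the minus strand of chromosome 2 in Rnor_6.0, at 188637852 to 188645196, 188588796 to 188596222 and 188655912 to 188660179. Efna3 fell in SCI_Veh against sham, while Efna1 had a log2 change of -0.16 (SE 0.34, edgeR adjusted p = 0.747). Efna4 was at 1.05, 1.42 and 1.0 CPM in sham and at 3.09, 2.87 and 1.55 in SCI_Veh, without overlap, but did not pass (log2 1.11, SE 0.54, edgeR adjusted p = 0.123). The difference between these genes was not tested. Sema3c, Sema3e, Sema3a and Sema3d also lie on the same chromosome, between 14318274 and 19413484 on chromosome 4. By edgeR 0 of these 4 passed in SCI_Veh against sham. Sema3c was at 42.0, 65.7 and 136 CPM in sham, at 99.5, 127 and 112 in SCI_Veh and at 64.7, 76.3 and 91.6 in SCI_ALA. Sema3d was at 13.4, 12.7 and 32.5 CPM in sham, at 30.2, 29.9 and 23.4 in SCI_Veh and at 17.8, 17.9 and 19.6 in SCI_ALA. In both genes sham 3 was the highest library and every SCI_ALA library lay below every SCI_Veh library. Sema4a stayed within 32.0 to 49.6 CPM in all 9 libraries (log2 change 0.01 in SCI_Veh against sham, SE 0.17).

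The remaining marker lists gave these counts in SCI_Veh against sham, where 19.5% of all genes were called higher and 18.5% lower. Oligodendrocyte precursors had 0 of 9 higher and 1 lower, pericytes and fibroblasts 2 of 10 higher, neutrophils 1 of 7 higher, lymphocytes 1 of 5 higher, Schwann cells 2 of 8 higher and 2 lower, and ependymal cells 0 of 5 higher and 2 lower. Their part in the changes of guidance genes was not tested.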
